A study of Mus musculus with 4 samples.

Results

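The genes described here encode 10 proteins that write, read or recruit repressive heterochromatin over endogenous retroelements, the silenced remains of retroviruses and other transposons in the mouse genome. They were chosen by name (Trim28, Setdb1, Atf7ip, Ehmt1, Ehmt2, Suv39h1, Suv39h2, Zfp809, Morc3 and Mphosph8), and all 10 were found among the 39179 Ensembl genes measured. Messenger RNA was sequenced from fibroblasts cultured from BALB/c mouse embryos (MEFs, a connective tissue cell). The SON group (2 libraries) was infected at passage 2 with a lentivirus of Stella, Oct4 and Nanos2, all genes of the early embryo or the germ line. The GFP control group (2 libraries) was infected at the same passage with a lentivirus of green fluorescent protein. Both groups were put under puromycin at 2 µg/ml from 72 h after infection for 4 days and were then grown without the drug for 21 days, so both carry an integrated virus. The labels do not name the promoter of the virus, nor whether libraries sharing a group had separate cultures as their source, so the p-values here reflect library-to-library spread alone, which may be technical. Virus and culture coincide with the group and cannot be told apart from the delivered genes.

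Silencing of a retroelement usually starts with a zinc finger protein of the KRAB family, which recognises a short sequence in the element and brings in Trim28. Trim28 carries the methyltransferase Setdb1, which trimethylates lysine 9 of histone H3, and that mark is read by HP1 proteins and by the HUSH complex. Ehmt1 and Ehmt2 place the mono- and dimethyl forms of the mark in euchromatin, and Suv39h1 and Suv39h2 place the trimethyl form at pericentromeric satellites and at long interspersed elements. In differentiated cells such as fibroblasts, DNA methylation carries much of the silencing beside these proteins.

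The libraries held 17365551 and 14680865 reads in genes in SON, against 28924700 and 37097571 in the GFP control. The delivered genes Dppa3 (Stella), Pou5f1 (Oct4) and Nanos2 together had normalized counts of 1151 and 1124 in SON, against 0 and 1.19 in the GFP control. The 8 fibroblast markers summed to 257831 and 223487 in SON and to 567848 and 289272 in the GFP control. Col3a1 alone had 122365 in GFP control I and 24939 in II. The markers differed in direction, with 5 negative and 3 positive log2 differences. Both SON libraries lay below both GFP control libraries for 4 markers and above them for 2. The 4 lower ones were Col1a1, Col1a2, Pdgfra and Pdgfrb. Pdgfra had 3049 and 3806 in SON, against 15874 and 8611 in the GFP control. Col1a2 had 70712 and 48599 in SON, against 194382 and 92186 in the GFP control. The authors' deposited DESeq2 results call these 2 lower (adjusted p = 3.28e-05 for Pdgfra and 0.0427 for Col1a2). The 2 higher ones were Thy1 (8785 and 7208, against 5743 and 6999) and Vim (58371 and 72423.5, against 51464 and 55968.5). The 5 epithelial markers summed to 143 and 80.8 in SON, against 76.01 and 171 in the GFP control, most of it Krt18 (132 and 52.9 in SON, against 59.3 and 146 in the GFP control), while Epcam, Cdh1, Krt8 and Krt5 did not exceed 11.9 in any library. The 10 macrophage markers summed to 340 and 1099 in SON, against 1022 and 1279 in the GFP control, with Adgre1 and Tyrobp at 0 in SON I. Their part in the results was not tested. The leukocyte gene Ptprc did not exceed 22.03, but other genes of that list stood higher. Cd53 had 164 and 413 in SON, against 427 and 537 in the GFP control. Lyz2 had 43.6 and 306 in SON, against 352 and 377 in the GFP control. A normalized count is the number of reads divided by 1 size factor per library, as the authors scaled it, and 1 read is worth 1.36 and 1.47 in SON I and II and 0.835 and 0.594 in GFP control I and II.

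For none of the 10 silencer transcripts did the difference between SON and GFP control cells pass a test against the spread between libraries. All 10 passed the filter on low reads and were tested with limma on log2 of the normalized count plus 1, with Benjamini-Hochberg adjustment over 15283 genes. None reached an adjusted p under 0.05, where 0.0523% of all genes tested did, and none had an unadjusted p under 0.05, where 12.6% of all genes did. In simulated counts the same fit gave an adjusted p under 0.05 to only 11% of genes changed 2-fold, and an unadjusted one to 81%. DESeq2 and edgeR on the recovered reads also called 0 of the 10, with 0 at an unadjusted p under 0.05. Over all genes DESeq2 called 3.96% of those that it gave an adjusted p, while edgeR called only 5 higher and 3 lower. The shares of all genes at an unadjusted p under 0.05 were not counted for DESeq2 and edgeR. In the authors' deposited table, none of the 10 has an adjusted p under 0.05, where 4.07% of the genes with an adjusted p do. The median log2 difference of the 10, SON minus GFP control, was 0.09, with 9 positive and 1 negative, beside a median of -0.01 over all genes tested, with 7531 positive and 7752 negative. The median absolute difference was 0.12 for the 10 and 0.24 for all genes tested. For 9 of the 10 genes the 95% interval lay within 2-fold either way, and Suv39h2 was the exception. The median of the 10 was -0.072 without SON I, so its sign rests on that library.

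**Figure D1:**
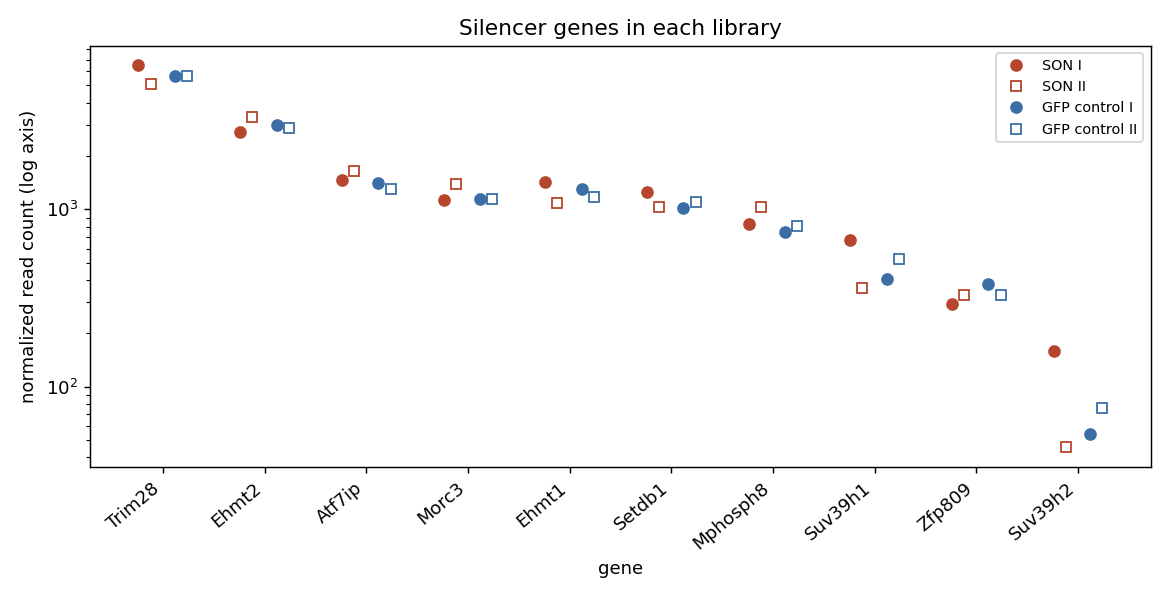
Normalized read count (log axis) of each silencer gene in the 2 SON libraries (red) and the 2 GFP control libraries (blue), with filled circles for library I and open squares for library II. Trim28 was the highest at 5093 to 6514 in SON, Suv39h2 the lowest, and the SON libraries lie on both sides of at least 1 GFP control library for 8 of the 10 genes. Of all genes tested, 22.2% had both SON libraries above both GFP control libraries and 23.7% had both below.

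Levels of different genes can be compared only per length, here as normalized counts per kb of merged exons in the GENCODE annotation. Trim28 stood highest on that scale, with 1396 ± 242 per kb in SON and 1364 ± 1.61 per kb in the GFP control (SD, n = 2 each, as for all levels per kb here). Ehmt2 followed with 553 ± 77.7 per kb in SON and 534 ± 12.4 per kb in the GFP control. Mphosph8 and Morc3 came next, with 259.99 ± 40.7 and 232 ± 32.8 per kb in SON, and 217 ± 12.2 and 209.8 ± 0.41 per kb in the GFP control, and these neighbours overlapped in both groups. Setdb1 and Ehmt1 overlapped each other likewise, with 166 ± 22.3 and 154 ± 29.5 per kb in SON and 155 ± 8.06 and 152.5 ± 10.1 per kb in the GFP control. Zfp809, Suv39h1 and Atf7ip had 106 ± 8.60, 98.5 ± 42.3 and 74.96 ± 6.36 per kb in SON, where neighbours overlapped, and 119.9 ± 11.97, 88.5 ± 15.8 and 65.6 ± 3.26 per kb in the GFP control, where they did not. Suv39h2 was the lowest, with 23.1 ± 18.1 per kb in SON and 14.8 ± 3.50 per kb in the GFP control. The order of the 10 genes was the same in both groups. Merged exons include every annotated transcript, which lowers the level per kb of a gene with long alternative exons such as Atf7ip (20.7 kb).

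Zfp809 is the recruiter in the set, a KRAB zinc finger protein that binds the proline primer binding site of murine leukaemia viruses and VL30 elements. Zfp809 (ENSMUSG00000057982, GRCm38 chromosome 9, 22225714 to 22243354) had normalized counts of 295 and 331 in SON, against 380.0 and 330 in the GFP control. SON II thus lay level with GFP control II, and the groups overlapped. The log2 difference was -0.18 ± 0.19 (SE), with a 95% interval of -0.68 to 0.31 (limma adjusted p = 0.753), the only negative difference among the 10.

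Trim28, the corepressor that the KRAB proteins bind, is the hub of the pathway. Trim28 (ENSMUSG00000005566, chromosome 7, 12999114 to 13031035) had 6514 and 5093 in SON, against 5666 and 5676 in the GFP control. The GFP control libraries were nearly equal and lay between the SON libraries. Its log2 difference was 0.02 ± 0.17 (SE), and the 95% interval ran from 0.746-fold to 1.38-fold (limma adjusted p = 0.973).

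Setdb1, the methyltransferase that Trim28 brings in, and Atf7ip, which stabilises Setdb1 in the nucleus, act as a pair. Setdb1 (ENSMUSG00000015697, chromosome 3, 95323525 to 95357202) had 1246 and 1030 in SON, against 1024 and 1102 in the GFP control, so the groups overlapped (log2 difference 0.09 ± 0.16 SE, limma adjusted p = 0.864). Atf7ip (ENSMUSG00000030213, chromosome 6, 136506167 to 136610862) had 1460 and 1647 in SON, against 1407 and 1312 in the GFP control. Both SON libraries lay above both GFP control libraries for Atf7ip, by 0.19 on the log2 scale, with a 95% interval of -0.18 to 0.56 (limma adjusted p = 0.645). Setdb1 shares 75 exonic bases with Cers2 and 249 with Gm37500, and Atf7ip shares 83 with Gm44140. All of these lie on the opposite strand, and reads of this kit carry no strand.

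Ehmt1 (also GLP) and Ehmt2 (also G9a) work as a heterodimer, and Ehmt2 is known in mouse embryonic stem cells for repressing MERVL. Ehmt2 (ENSMUSG00000013787, chromosome 17, 34898469 to 34914052) had 2731 and 3335 in SON, against 2981 and 2885 in the GFP control. Ehmt1 (ENSMUSG00000036893, chromosome 2, 24789928 to 24919614) had 1419 and 1081 in SON, against 1295 and 1180 in the GFP control. For both genes the GFP control libraries lay between the SON libraries, but in opposite senses: SON I was the high library for Ehmt1 and SON II for Ehmt2. The log2 differences were 0.04 ± 0.16 for Ehmt2 and 0.0029 ± 0.19 for Ehmt1 (SE, limma adjusted p = 0.944 and 0.997), and that of Ehmt1 was -0.012 with TMM factors.

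Mphosph8 is the chromodomain subunit of HUSH, which reads methylated lysine 9, and Morc3 is a nuclear ATPase that silences retroviral elements in a SUMO-dependent way. Mphosph8 (ENSMUSG00000079184, chromosome 14, 56668248 to 56697430) had 829 and 1036 in SON, against 747 and 808 in the GFP control. With Atf7ip it was the second gene whose SON libraries both lay above the GFP control, and these 2 of 10 compare with 22.2% of all genes tested. For 0 of the 10 both SON libraries lay below the GFP control, against 23.7% of all genes tested. Mphosph8 shares 384 exonic bases with Gm16973 on the opposite strand, at 55.9 and 33.8 in SON and 81.02 and 65.98 in the GFP control. The log2 difference of Mphosph8 was 0.25 ± 0.18 (SE), with a 95% interval of -0.19 to 0.70 (limma adjusted p = 0.611). Morc3 (ENSMUSG00000039456, chromosome 16, 93832121 to 93876073) had 1133 and 1385 in SON, against 1141 and 1138 in the GFP control. SON II alone stood out for Morc3, and the log2 difference was 0.14 ± 0.16 (SE, limma adjusted p = 0.776).

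**Figure D2:**
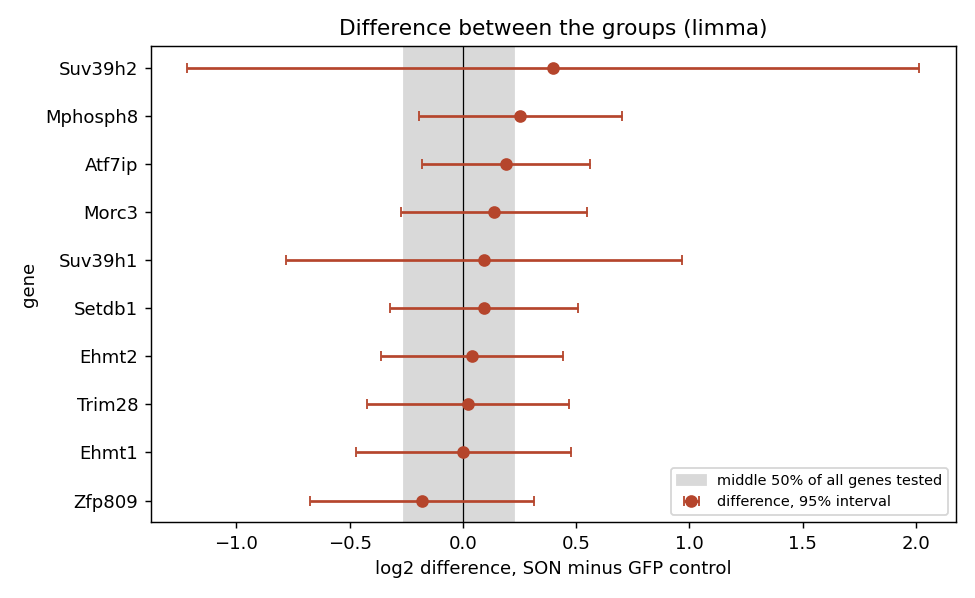
Log2 difference, SON minus GFP control, of each silencer gene (points) with its 95% interval from limma (bars), and the middle 50% of the differences of all genes tested (grey band, -0.26 to 0.23). Every interval spans 0, and those of Suv39h1 and Suv39h2 are the widest.

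The Suv39h genes encode the pair of methyltransferases that build constitutive heterochromatin, and they had the widest intervals of the 10. Suv39h1 (ENSMUSG00000039231, chromosome X, 8061171 to 8074760) had 676 and 361 in SON, against 408 and 525 in the GFP control. Suv39h2 (ENSMUSG00000026646, chromosome 2, 3455815 to 3475031) had 158 and 45.5 in SON, against 54.3 and 76.1 in the GFP control, from 116 and 31 reads in SON and 65 and 128 reads in the GFP control. In both genes SON I was the highest library and SON II the lowest. Suv39h1 differed by 0.10 ± 0.34 on the log2 scale (SE), with a 95% interval of 0.583-fold to 1.96-fold (limma adjusted p = 0.941). Suv39h2 differed by 0.40 ± 0.63 (SE), with a 95% interval of 0.431-fold to 4.04-fold (limma adjusted p = 0.844). On all 4 libraries the difference was 0.64 with DESeq2, 0.64 with edgeR and 0.53 in the authors' deposited table. The limma difference of Suv39h2 was 1.29 without SON II and -0.49 without SON I, so its direction depends on the SON library kept. Suv39h2 shares 357 exonic bases with Dclre1c on the opposite strand, whose counts were 154 and 189 in SON and 154 and 166 in the GFP control. Reads of Suv39h2 and Dclre1c cannot be told apart there. Suv39h1 shares 767 exonic bases with Gm14820 on the opposite strand, at 0 in every library. In bulk RNA, fewer cells of a type and less RNA per cell cannot be told apart.

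The difference within SON exceeded the difference between the groups for 8 of the 10 genes, all but Atf7ip and Zfp809. The share of all genes tested for which this held was not counted, so the 8 cannot be read as particular to the silencers. SON I lay above SON II for Trim28, Setdb1, Ehmt1, Suv39h1 and Suv39h2, and below it for Atf7ip, Ehmt2, Zfp809, Morc3 and Mphosph8. The log2 difference SON I minus SON II was 1.77 for Suv39h2 and 0.90 for Suv39h1, while the other 8 genes lay between -0.32 and 0.39. The median absolute difference within SON was 0.31 for the 10 genes and 0.30 for all genes tested. By Euclidean distance between log2 profiles over the 4 libraries, each centred on its mean, Morc3 was nearest to Ehmt2 (0.10) and Trim28 to Ehmt1 (0.10). Suv39h2 was nearest to Suv39h1, at 0.69, and was the farthest gene for 8 of the others.

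The Suv39h genes ordered the libraries as most cell division genes did. All 16 genes of the cell division list (among them Mki67, Top2a and Cdk1) were higher in SON I than in SON II, with a median log2 difference of 1.69, and all 16 were lower in GFP control I than in II, with a median of -0.41. Their summed normalized counts were 30620 and 10728 in SON, against 13877 and 18693 in the GFP control. Suv39h1 and Suv39h2 had the same order of libraries as that sum (SON I, GFP control II, GFP control I, SON II, from high to low). This order, chosen after the values had been seen, was also that of 14 of the 16 cell division genes, of Trim28, and of 5.99% of all genes tested. Between the groups 0 of the 16 division genes passed limma or an unadjusted p under 0.05, and their median log2 difference, SON minus GFP control, was 0.03. The part of cell division in the Suv39h values was not tested.

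**Figure D3:**
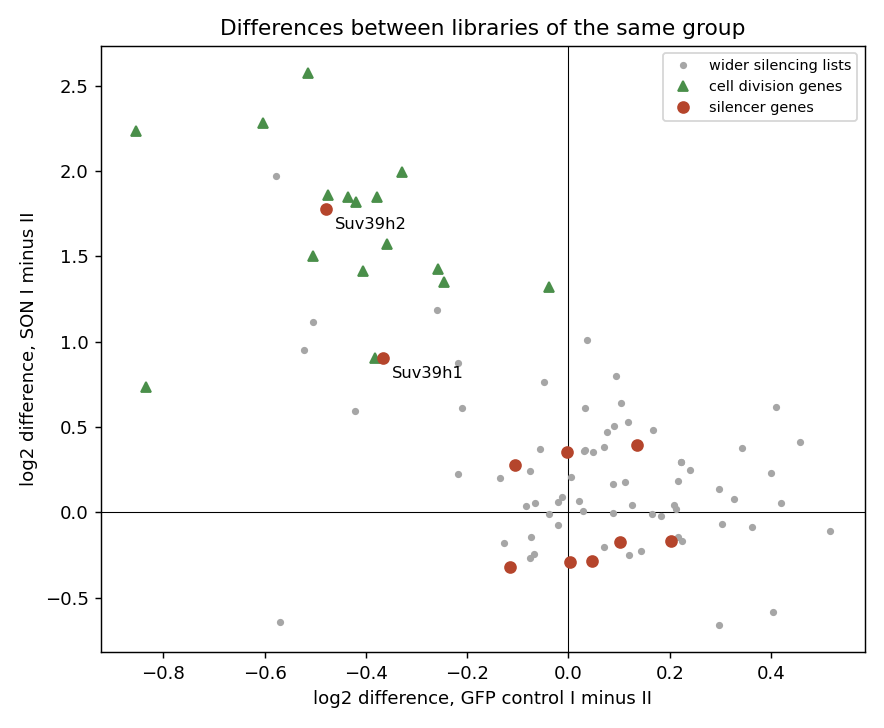
Log2 difference between the libraries of a group, SON I minus II (vertical) against GFP control I minus II (horizontal), for the 10 silencer genes (red), 16 cell division genes (green) and the 67 tested genes of the wider silencing lists (grey). Suv39h2 and Suv39h1 lie at 1.77 and 0.90 on the vertical axis, among the division genes, and the other 8 silencers between -0.32 and 0.39.

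The promoter windows of the Suv39h pair are printed because both genes followed this division profile. They hold 250 bases before and 50 after a transcription start (RefSeq, GRCm38.p6), and all 10 genes had a window. Suv39h1 has 2 windows, of which the one at the annotated gene start is shown (chrX:8074711-8075010, minus strand), and the Suv39h2 window is chr2:3474937-3475236, minus strand. Capitals mark TTTGAA on either strand, the sequence of the cell cycle genes homology region (CHR) found in promoters of mitotic genes.
Suv39h1: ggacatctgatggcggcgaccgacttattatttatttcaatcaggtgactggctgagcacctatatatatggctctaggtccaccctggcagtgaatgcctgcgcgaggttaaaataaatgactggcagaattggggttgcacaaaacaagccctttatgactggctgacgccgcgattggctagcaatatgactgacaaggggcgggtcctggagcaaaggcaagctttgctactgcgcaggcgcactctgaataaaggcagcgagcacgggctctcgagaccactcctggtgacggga
Suv39h2: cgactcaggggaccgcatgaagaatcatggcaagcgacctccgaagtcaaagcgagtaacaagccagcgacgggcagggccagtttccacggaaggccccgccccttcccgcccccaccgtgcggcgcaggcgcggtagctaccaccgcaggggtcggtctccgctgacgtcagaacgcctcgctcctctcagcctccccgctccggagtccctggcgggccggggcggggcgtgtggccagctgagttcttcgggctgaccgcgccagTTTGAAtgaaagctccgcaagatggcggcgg
The Suv39h2 window holds 1 such match and the Suv39h1 window holds 0. For the other 8 members only the window nearest the annotated gene start was read, which left out a second window of Ehmt2 and of Zfp809. That of Atf7ip, which was higher in SON II than in SON I, holds 2, and those of the other 7, Trim28 among them, hold 0. The windows read for Trim28 and Atf7ip lie 25038 and 12684 bases from the annotated start. TTTGAA is found in 17.9% of all 32851 windows of 300 bases and in 6 of the 14 windows of the division list. TTTNGCGC or TTTCCCGC on either strand, E2F-type sequences, are in neither window, against 2.39% of all windows and 4 of the 14. A match is a description of letters, not of binding.

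Partners of the silencers were examined as lists of 71 genes, of which 67 passed the filter. None passed limma over all genes, 3 lower and 0 higher had an unadjusted p below 0.05 (against 5.99% higher and 6.57% lower of all genes tested), and the median log2 difference was 0.02, with 34 positive and 33 negative. Both SON libraries lay above the GFP control for 11 and below it for 13 of the 67, against 22.2% and 23.7% of all genes tested. Trim66 and Fam208a were among these 3.

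Trim66, a relative of Trim28 best known from testis, had 94.1 and 70.5 in SON, against 231 and 168 in the GFP control. Both SON libraries lay below both GFP control libraries, at a log2 difference of -1.27 (limma adjusted p = 0.270). The authors' deposited table calls Trim66 lower, with a log2 fold change of -1.17 (adjusted p = 0.0319), and DESeq2 on the recovered reads called it too. It was the one gene of these lists that either called, and DESeq2 called 0 of the lists' genes in each fit without 1 library. The other 8 tested genes among the Trim28 relatives and the NuRD deacetylase subunits lay between -0.18 (Chd3) and 0.21 (Trim24), and the relative Trim33 had 1140 and 1108 in SON, against 1294 and 1120 in the GFP control.

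Of the HUSH partners, 4 of 4 were tested. Fam208a (listed as D14Abb1e), the scaffold subunit also known as Tasor, had 626 and 593 in SON, against 978 and 779 in the GFP control. The groups did not overlap (log2 difference -0.52, unadjusted p = 0.0327, limma adjusted p = 0.360), and Mphosph8, its partner in the complex, had a difference of the opposite sign. Pphln1 (periphilin) had 1385 and 1324 in SON, against 1482 and 1460 in the GFP control, and the ATPase Morc2a had 2202 and 1707 in SON, against 1746 and 1708 in the GFP control.

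The list of the SUMO pathway, which attaches a small modifier to proteins such as Trim28, had 7 of 7 genes tested and a median of 0.13, with 4 positive and 3 negative. Sumo2, one of the modifiers, had 664 and 519 in SON, against 542 and 531 in the GFP control, so the groups overlapped (limma adjusted p = 0.827).

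The 5 genes of HP1 and of H4K20 methylation had a median of -0.18, with 4 of 5 negative. Cbx3, which encodes HP1 gamma, had 635 and 488 in SON, against 786 and 748 in the GFP control, the largest difference of that list at -0.46 (limma adjusted p = 0.413). Cbx5, HP1 alpha, had 3898 and 2246 in SON, against 2906 and 2724 in the GFP control, so the GFP control values fell inside the SON range. Of the partners of H3K9 methyltransferases, Atf7ip2 had the largest difference (-0.36, at no more than 24.97 in any library). Wiz and Cdyl, both partners of Ehmt2, lay higher in both SON libraries, with log2 differences of 0.20 and 0.23 (limma adjusted p = 0.630 and 0.600). Mbd1 did so too, at 0.12 (limma adjusted p = 0.786). These were 3 of the 6 tested genes of that list, and 0 lay lower, against 22.2% higher and 23.7% lower of all genes tested. Zfp644 overlapped, with 1264 and 906 in SON, against 1032 and 919 in the GFP control.

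The 10 genes of histone H3.3 and nucleosome assembly had a median of 0.16. Asf1b, a histone chaperone of dividing cells, had 618 and 157 in SON, against 223 and 333 in the GFP control, and Hells, a remodeller needed for DNA methylation, had 941 and 413 in SON, against 520 and 623 in the GFP control. Both had the library order of the division genes. Chaf1a, the large subunit of the assembly factor CAF-1, showed the largest difference of the list, with 837 and 433 in SON, against 381 and 547 in the GFP control (log2 0.40, limma adjusted p = 0.712). Atrx, the remodeller that deposits H3.3 with Daxx, had 2610 and 2822 in SON, against 2811 and 1965 in the GFP control.

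The other KRAB zinc finger genes of the list, 7 of 8 tested, had a median of 0.07. Zfp568 had the largest difference (log2 0.52, limma adjusted p = 0.606), carried by SON I, with 727 and 360 in SON, against 361 and 352 in the GFP control. Zfp932 and Gm15446, which bind retroviral elements, lay at 157 and 165, and at 95.4 and 107, in SON, against 170 and 138, and 120.3 and 103, in the GFP control, and both overlapped. The H3K9 demethylases, which remove the mark, had a median of 0.12 over 9 tested genes, with Jmjd1c the largest at 0.34 (limma adjusted p = 0.460). The 8 tested genes among other repressors had a median of -0.05, with L3mbtl2, a subunit of a polycomb complex, the largest at 0.52 (limma adjusted p = 0.406). Of the other Morc genes, Morc4 had the largest difference, at -0.23 (limma adjusted p = 0.790).

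**Figure D4:**
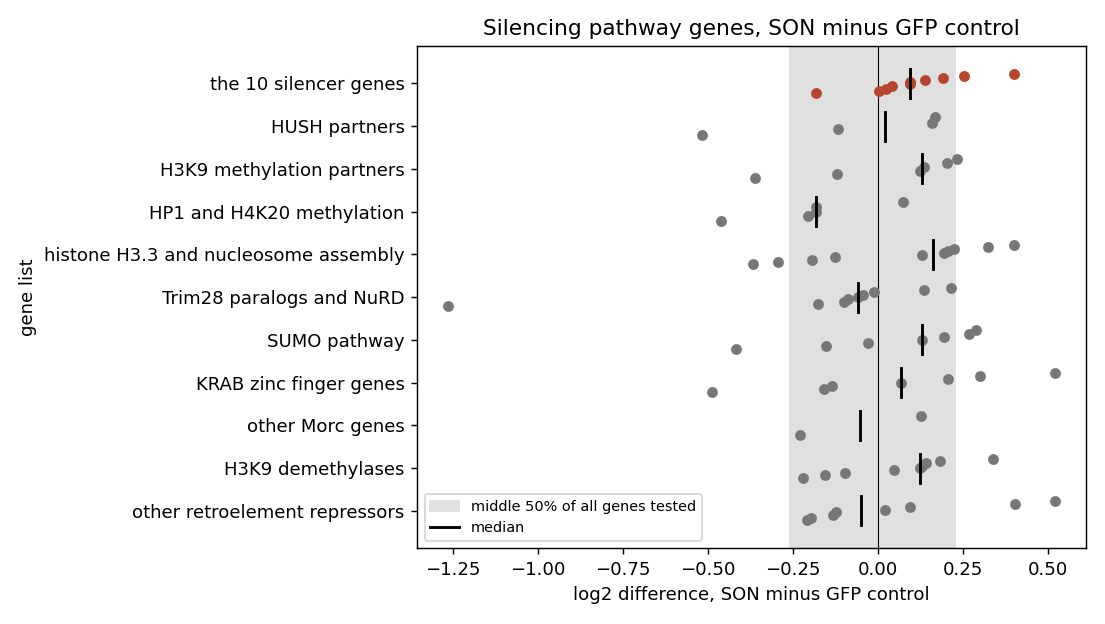
Log2 difference, SON minus GFP control, of the 10 silencer genes (red, top) and of the tested genes of 10 wider lists (grey points), with the median of each list (black bar) and the middle 50% of all genes tested (grey band). Medians run from -0.18 to 0.16, and Trim66 is the point at -1.27.

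The elements that these proteins are known to silence were read in a second table, as counts per repeat copy summed by RepeatMasker name and scaled in the same way. A sum covers only the copies listed there, not the whole family in the genome. These were 12 for IAPEz-int, 9 for MERVL-int, 16 for L1Md_A, 18 for L1Md_T, 9 for GSAT_MM and 12 for RLTR6_Mm. MMVL30-int had 97 and L1Md_F2 150. The repeat columns carry letters that no label joins to libraries I and II, so they are used by group. Their size factors were 0.736 and 0.680 in SON a and b, and 1.195 and 1.681 in GFP control a and b. Those of libraries I and II were close, at 0.733 and 0.681 in SON and 1.197 and 1.682 in the GFP control. By size factor, a thus pairs with I and b with II. Of 19 names listed, 18 were found and 16 tested, with 8 positive and 8 negative differences and a median of 0.02, beside -0.12 over 943 names tested. Limma called 2 of the 16, where 0.848% of all names tested were called, and both are VL30 names. Copies were summed whatever primer binding site they carry, so those that Zfp809 binds cannot be told apart. Outside VL30, RLTR4_Mm had 154 and 151 in SON, against 102 and 149 in the GFP control (log2 0.31, limma adjusted p = 0.680). MuRRS4-int had 607 and 568 in SON, against 552 and 626 in the GFP control (log2 -0.0018, limma adjusted p = 0.997). MMVL30-int fell, with 2495 and 3561 in SON, against 6202 and 5917 in the GFP control (log2 difference -1.02, limma adjusted p = 0.0180), and its long terminal repeat RLTR6_Mm fell with 413 and 610 in SON, against 1213 and 1197 in the GFP control (-1.26, limma adjusted p = 0.0180). Without SON column a the adjusted p was 0.287 for both and without SON column b 0.0604 for both, at differences of -0.77 and -1.28 for MMVL30-int and -0.98 and -1.54 for RLTR6_Mm.

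Trim28 and Setdb1 are best known for silencing IAP and related elements. IAPEz-int, the body of the intracisternal A particle, had 232 and 174 in SON, against 299 and 228 in the GFP control (log2 -0.38, limma adjusted p = 0.553), so the groups overlapped. IAPLTR2_Mm, from 3 copies, had 28.5 and 42.6 in SON, against 27.6 and 22.02 in the GFP control, so both SON columns lay higher (limma adjusted p = 0.648). MMERVK10C-int had 277 and 241 in SON, against 289 and 221 in the GFP control (limma adjusted p = 0.973). MERVL-int, an Ehmt2 target in embryonic stem cells, had 177 and 294 in SON, against 202 and 231 in the GFP control (limma adjusted p = 0.929). The spread between SON columns exceeded the difference between groups for MERVL-int.

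Names tied to the Suv39h enzymes are the young L1 elements and the major satellite. L1Md_T had 981 and 481 in SON, against 357 and 352 in the GFP control, and both SON columns lay above both GFP control columns (log2 0.95, limma adjusted p = 0.214, DESeq2 adjusted p = 0.00248). Its difference was 0.44 without SON column a and 1.47 without SON column b, with limma adjusted p of 0.403 and 0.0840. L1Md_A had 2238 and 2470 in SON, against 1964 and 2279 in the GFP control, and L1Md_F2 2112 and 2503 in SON, against 2645 and 2391 in the GFP control, and both overlapped. GSAT_MM, the major satellite, had 105 and 563 in SON, against 138 and 264 in the GFP control, so 1 SON column was the lowest and the other the highest of the 4. Both SON columns lay above the GFP control for 3 (L1Md_T, IAPLTR2_Mm and RLTR4_Mm) and below it for 2 of the 16 names, against 13.0% and 32.1% of all names tested. The kit selects messenger RNA, so satellite and L1 reads cover the part of these transcripts that it captures, and reads with several hits were counted in a way that no source here states.

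**Figure D5:**
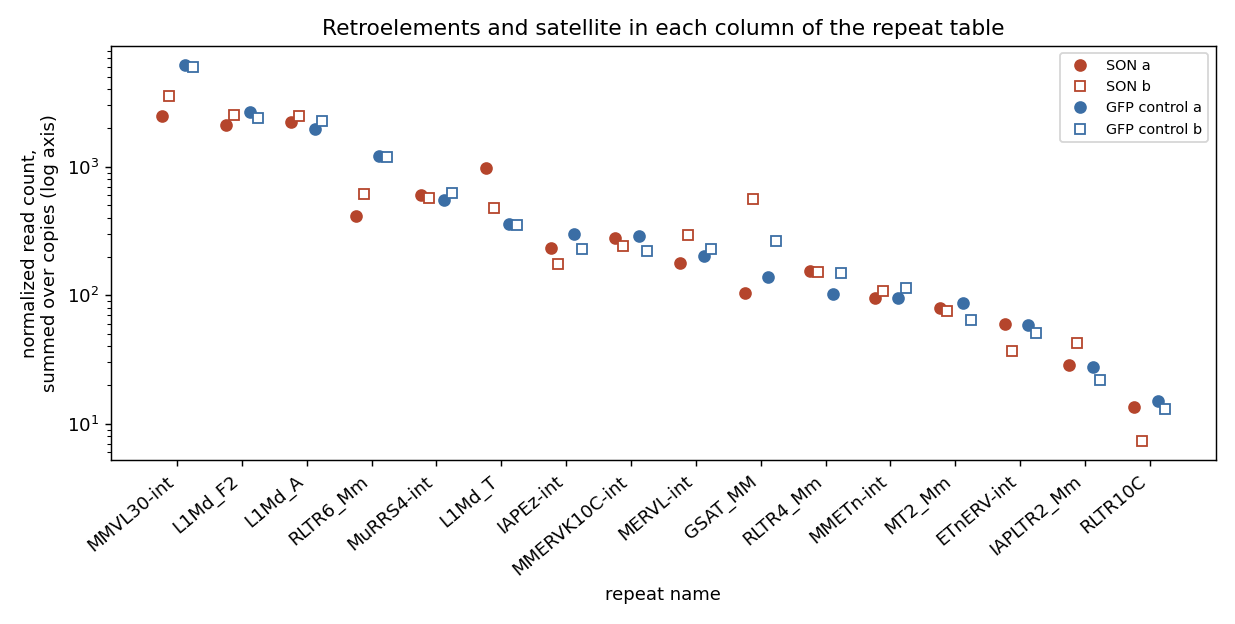
Normalized read count, summed over the copies of a repeat name (log axis), in the 2 SON columns (red) and the 2 GFP control columns (blue) of the repeat table, for the 16 listed names tested. MMVL30-int and RLTR6_Mm are lower in both SON columns, L1Md_T is higher in both, and the SON columns of GSAT_MM lie at 105 and 563 on either side of the GFP control.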

How the data were processed

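RNA of 4 libraries (2 SON, 2 GFP control) was prepared with the TruSeq mRNA kit v2, per the labels' protocols. Per the submitters' processing notes the tools were STAR 2.4.0j and TopHat2 2.0.11, HTSeq 0.5.3p3, Subread with featureCounts, DESeq2 and CASAVA 1.8.1, on GRCm38 (mm10); their assignment to tables is not stated there. The deposited signal of both tables is a read count that the authors divided by 1 size factor per library: 100% of the values were whole multiples of 1 step within 0.01 reads, and reads were recovered by that division. Per the file headers the authors' DESeq2 columns give a Wald score, p-values, the log2 fold change with its SE, and a mean signal.

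Low genes were removed by filterByExpr (edgeR 4.0.16). The rest were fitted with limma 3.58.1 in R 4.3.3, two-sided, with a trend on the mean and a pseudocount of 1. The fit was tested on counts simulated around the means of the libraries. It gave a limma adjusted p under 0.05 to 11% of genes changed 2-fold and 88% of those changed 8-fold. An unadjusted p under 0.05 was reached by 81% and 100% of these, and by 5.11% of unchanged genes. The pseudocount makes a fold change of a low gene slightly too small. Repeat names were fitted alike after summing copies. DESeq2 1.42.0, edgeR's quasi-likelihood test, limma voom, other scalings, pseudocounts and filters, a replicate block and each library left out were alternatives. Over the deposited, TMM and upper-quartile scales the median log2 difference of all genes was -0.01, -0.02 and 0.001. No pair of libraries was a copy (chi-square per degree of freedom of at least 33.7). GENCODE M21 gave positions, overlaps and exon lengths, and matched 37607 of 39179 identifiers. All members, and in each wider list the genes called or else that with the largest difference, were to be named, and other named genes were picked with their values in view. Some results of the wider lists are not reported here. The members and lists were chosen with earlier results of these data known.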

Additional observations from a re-analysis of the deposited data

How the results depend on the processing

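None of the 10 silencers was called under any of the 18 alternatives. Suv39h2 passed an unadjusted p under 0.05 without SON II (limma and DESeq2), and no other silencer did. Ehmt1 stood at -0.012 with TMM factors. Without 1 library, limma differences ran from -0.16 to 0.20 for Trim28, -0.045 to 0.23 for Setdb1, -0.19 to 0.20 for Ehmt1, -0.10 to 0.19 for Ehmt2, -0.36 to 0.55 for Suv39h1, -0.49 to 1.29 for Suv39h2 and -0.0079 to 0.28 for Morc3, and, with no change of sign, from 0.10 to 0.28 for Atf7ip, 0.094 to 0.41 for Mphosph8 and -0.28 to -0.080 for Zfp809. With DESeq2 the sign also changed, to -0.16 for Trim28 without SON I, -0.052 for Setdb1 without SON I, -0.20 for Ehmt1 without SON I, -0.38 for Suv39h1 without SON I, -0.53 for Suv39h2 without SON I, -0.11 for Ehmt2 without SON II, -0.015 for Morc3 without SON II, -0.026 for Suv39h1 without GFP control I, -0.047 for Ehmt1 without GFP control II.

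Over all genes limma called 5 higher and 3 lower, 3 higher with a pseudocount of 0.1 and 3 higher and 1 lower with voom. DESeq2 called 217 higher and 374 lower, and 1 gene of the wider lists (Trim66). Without 1 library the calls ran from 0 to 9 higher and 0 to 28 lower in limma, and with DESeq2 were 17 higher and 33 lower without GFP control I, 141 higher and 316 lower without GFP control II, 143 higher and 307 lower without SON I, 309 higher and 336 lower without SON II. The replicate numerals share only a number: differences I minus II of both groups correlated at 0.22 across genes, and with the replicate block limma called 7 genes lower and none of the silencers.

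Of the 2 repeat names called, 0 were called without SON a or without SON b, and DESeq2 called 3, L1Md_T being the third. MuRRS4-int stood at 0.11 and MMETn-int at 0.076 with DESeq2, and MuRRS4-int at 0.022 with gene-table factors. Without 1 column the difference ran from -0.16 to 0.22 for MMERVK10C-int, -0.29 to 0.44 for MERVL-int, -0.18 to 0.27 for MT2_Mm, -0.092 to 0.089 for MuRRS4-int, -0.16 to 0.10 for MMETn-int, -0.55 to 0.13 for ETnERV-int and -0.86 to 1.55 for GSAT_MM. The gene-table factors (by group mean, since columns carry letters) and DESeq2 without 1 library were added after seeing the data. With 2 libraries a group, the 95% interval reached 1.38-fold for Trim28 and 4.04-fold for Suv39h2 (31 reads in SON II).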
